A study of Mus musculus with 4 samples.

Results

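The 38 genes described here are the gene of the tumour suppressor p53 (Trp53), its negative regulators Mdm2 and Mdm4, known transcriptional targets of p53, and regulators of apoptosis of the BCL2, caspase and inhibitor-of-apoptosis (IAP) families. They were taken by symbol as textbook members of these pathways, by a rule that uses no measured value but was written with earlier results of these data known, and all 38 had a row among the 18383 genes of the authors' deposited table. RNA came from tubular epithelial cells isolated from the cortex of kidneys of C57BL/6 mice, labelled as 8 weeks old, in 2 libraries per genotype. The KMS group carried SETD2fl/fl, MYCfl/fl and KspCre/+, and the KM group carried MYCfl/fl and KspCre/+, so that the MYC allele and the Cre transgene were common to both groups and only the SETD2 alleles differed by label. KspCre places Cre recombinase under the promoter of kidney-specific cadherin, which is active in tubular epithelium. Which cells of the preparation underwent the deletion was not measured here. SETD2 is the enzyme that trimethylates lysine 36 of histone H3. The series' title calls the cells MYC+ while the genotype labels give a floxed MYC allele, and the labels do not say what that allele does. The question asked of these genes is whether their transcript levels differ between such cells with and without floxed SETD2.

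p53 is a transcription factor kept low by MDM2, which marks it for degradation, and by MDM4, which masks its activation domain. When DNA damage, oncogene activity or other stress releases it, it switches on genes that stop the cell cycle, repair damage and limit oxidants, and genes that kill the cell. Death by the mitochondrial route is decided by the BCL2 family. BH3-only proteins such as PUMA (Bbc3), NOXA (Pmaip1), BIM (Bcl2l11) and BID neutralise the survival proteins BCL2, BCL-XL (Bcl2l1) and MCL1 or activate BAX and BAK, which then open the outer mitochondrial membrane. Released cytochrome c assembles APAF1 and caspase 9 into the apoptosome, and released SMAC (Diablo) lifts the block that IAP proteins place on caspases. Death receptors such as FAS and TRAIL receptor (Tnfrsf10b) act through caspase 8, which cleaves BID and so joins both routes.

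The 2 KMS libraries held 9780050 and 8886496 counts, and the 2 KM libraries held 18639040 and 14955148 counts. By Xist and Y-linked counts, replicate 1 was female and replicate 2 male in both genotypes. Setd2 counts over the whole gene were 564 and 405 in KMS and 1006 and 949 in KM, or 53.8 ± 6.46 and 56.2 ± 2.69 CPM (SD, n = 2 each). Which exons are floxed is not named by the labels, so these counts do not check the genotype. KM replicate 2 stood apart in its cell markers. The summed level of 6 markers of injured tubules was 26.9 and 17.6 CPM in KMS, against 121 and 686 CPM in KM replicates 1 and 2, and that of 6 markers of urothelium and basal keratins was 0.103 and 0.972 CPM in KMS, against 11.7 and 91.4 CPM in KM, with Krt5, Krt14 and Krt15 at 0 counts in both KMS libraries. Leukocyte markers (8 of 9 in the table, 7 of 7 tested lower by value) summed to 299 and 192 CPM in KMS, against 410 and 855 CPM in KM, and 7 markers of cell division to 15.4 and 10.8 CPM in KMS, against 38.2 and 106 CPM in KM. Mesenchyme markers, all 6 lower by value, summed to 101 and 95.7 CPM in KMS, against 159 and 207 CPM in KM. Proximal tubule markers, all 8 higher by value, summed to 15983 and 15502 CPM in KMS, against 8432 and 6073 CPM in KM. Loop of Henle and distal tubule markers, all 6 higher by value, summed to 5811 and 3364 CPM in KMS, against 3323 and 877 CPM in KM, and podocyte markers, all 5 higher by value, to 2218 and 2060 CPM in KMS, against 1896 and 920 CPM in KM. Sums for collecting duct and endothelium overlapped between the groups, and their markers differed in direction. Of 6 collecting duct markers, Aqp2, Aqp3 and Scnn1g were higher by value in KMS (log2 fold changes 1.01, 0.70 and 1.15). The other 3, Atp6v1b1, Atp6v1g3 and Slc4a1, were lower (-0.20, -1.36 and -1.03). Of 5 endothelium markers, 2 were higher and 3 lower by value. The part of these differences in the levels below was not tested, and in such bulk samples fewer cells of a type and less RNA per cell cannot be told apart.

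The start regions of the genes that turn out to differ most clearly, Eda2r, Bbc3 and Bid, are shown with those of Trp53 itself and of Ccng1, the p53 target with the highest level per kilobase of exon among the 38 genes. Each sequence is the coding strand from 250 bases before to 50 bases after a RefSeq transcript start on GRCm38.p6. Capitals mark matches to the p53 response-element decamer and to CACGTG, the E-box bound by MYC with its partner MAX. Both motifs are their own reverse complement as a class, so a single scan covers both strands. Bbc3 has 3 windows, of which the outer ones are shown because the middle one overlaps the last.
Eda2r, chrX:97377160-97377459, minus strand: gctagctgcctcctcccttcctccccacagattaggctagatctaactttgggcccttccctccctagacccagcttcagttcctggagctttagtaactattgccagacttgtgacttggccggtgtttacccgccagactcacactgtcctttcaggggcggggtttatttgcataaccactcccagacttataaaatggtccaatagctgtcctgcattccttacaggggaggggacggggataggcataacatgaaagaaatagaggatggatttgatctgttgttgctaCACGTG
Bbc3 first window, chr7:16309333-16309632, plus strand: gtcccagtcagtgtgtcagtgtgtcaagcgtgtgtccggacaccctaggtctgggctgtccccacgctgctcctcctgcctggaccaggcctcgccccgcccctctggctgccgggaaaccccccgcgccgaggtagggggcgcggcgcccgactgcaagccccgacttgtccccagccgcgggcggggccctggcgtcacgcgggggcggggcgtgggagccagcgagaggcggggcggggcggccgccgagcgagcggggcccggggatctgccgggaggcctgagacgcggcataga
Bbc3 last window, chr7:16310181-16310480, plus strand: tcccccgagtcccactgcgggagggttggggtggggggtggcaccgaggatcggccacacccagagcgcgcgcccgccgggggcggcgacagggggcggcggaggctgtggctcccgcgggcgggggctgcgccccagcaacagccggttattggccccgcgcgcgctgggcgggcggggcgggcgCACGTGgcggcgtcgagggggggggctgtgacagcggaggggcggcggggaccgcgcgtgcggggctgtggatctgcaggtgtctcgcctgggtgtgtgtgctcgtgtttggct
Bid, chr6:120916775-120917074, minus strand: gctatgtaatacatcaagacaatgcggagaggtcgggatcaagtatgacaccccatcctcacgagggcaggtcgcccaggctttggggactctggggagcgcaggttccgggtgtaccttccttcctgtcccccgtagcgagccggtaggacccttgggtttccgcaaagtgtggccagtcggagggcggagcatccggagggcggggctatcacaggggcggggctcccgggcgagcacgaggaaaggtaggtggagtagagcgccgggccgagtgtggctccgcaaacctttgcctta
Trp53, chr11:69580109-69580408, plus strand: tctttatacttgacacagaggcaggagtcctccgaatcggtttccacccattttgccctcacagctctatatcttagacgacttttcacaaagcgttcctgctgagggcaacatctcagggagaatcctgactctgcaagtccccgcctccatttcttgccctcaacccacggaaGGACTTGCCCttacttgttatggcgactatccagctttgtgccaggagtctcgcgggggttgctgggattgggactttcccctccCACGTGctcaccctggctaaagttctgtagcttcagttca
Ccng1, chr11:40755237-40755536, minus strand: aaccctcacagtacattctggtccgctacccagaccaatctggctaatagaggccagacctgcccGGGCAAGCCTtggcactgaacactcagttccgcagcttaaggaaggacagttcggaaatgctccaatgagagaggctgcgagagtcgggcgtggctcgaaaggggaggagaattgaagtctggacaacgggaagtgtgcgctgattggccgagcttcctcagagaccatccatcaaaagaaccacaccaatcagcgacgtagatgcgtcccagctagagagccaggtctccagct

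Of the 38 genes, 32 matched 1 or more RefSeq windows (47 windows in all), while Bik, Perp, Pmaip1, Tnfrsf10b, Trp53inp1 and Zmat3 had none. Across the genome 27025 genes had 32851 windows, whether or not they were tested here, and a gene with more windows has more room for a match. The p53 decamer was found in the windows of 9 of these 32 genes (28.1%), namely Aen, Bax, Birc2, Bmf, Ccng1, Ei24, Mdm2, Sesn1 and Trp53. It was found in 9.55% of the 27025 genes, and among tested genes 855 held it and 9406 did not. In Trp53 it read GGACTTGCCC and began 75 bases before the start, and in Ccng1 it read GGGCAAGCCT and began 185 bases before it. The windows of Eda2r, Bbc3 and Bid held none, which says only that these letters are not in these 300 bases. CACGTG was found in 7 of the 32 genes (21.9%), namely Aen, Bax, Bbc3, Eda2r, Fas, Gdf15 and Trp53. It was found in 8.09% of the 27025 genes, and among tested genes 1194 held it and 9067 did not. The motif lay 44 bases after the start in Eda2r, 64 bases before it in the last window of Bbc3 and 10 bases after it in Trp53. The median log2 fold change (KMS over KM) was -0.89 over the 7 genes with CACGTG and -0.19 over the 25 without. Over all tested genes with and without CACGTG the medians were 0.0333 and -0.0038. The 7 values ran from -2.57 (Eda2r) to 0.19 (Bax), and their median is that of Trp53 alone. Whether the motif has a part in this was not tested. For the p53 decamer the medians were -0.15 with and -0.25 without it among these genes, and -0.0086 and 0.001 among all tested genes. A match is a description of the sequence and not a bound site.

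Among the 38 genes the largest differences between KMS and KM cells lay in p53 targets grouped here as apoptotic. The TNF receptor family gene Eda2r was 5.94-fold lower by value in KMS and the BH3-only gene Bbc3 3.46-fold lower, while the BH3-only gene Bid was 1.96-fold higher. In edgeR these 3 genes passed when sex was part of the model and missed the threshold with genotype only. With sex in the model and library totals in place of TMM, Eda2r alone passed. In DESeq2 with sex in the model Bbc3 did not pass. Adding sex in edgeR did not lower the SE of these 3 genes. It was 0.47 (Eda2r), 0.40 (Bbc3) and 0.21 (Bid), against 0.42, 0.36 and 0.18 with genotype only. Over all 15002 genes, the edgeR calls went from 5 with genotype only to 815 with sex added. All 38 genes passed the filter on low counts, with means of 1.25 to 202 CPM (counts scaled to 1000000 per library, with library totals adjusted by TMM) in KMS and 7.57 to 230 CPM in KM. In the fit with genotype as its only term, 0 of 38 passed (edgeR quasi-likelihood test, Benjamini-Hochberg adjusted p under 0.05 over 15002 genes), where 0.0333% of all tested genes did, and the lowest adjusted p among them was 0.0719 (edgeR). DESeq2 called 5 of the 38 in the same design (13.2%, against 11.8% of all genes, a share near the background), Bid higher and Trp53, Eda2r, Tnfrsf10b and Bbc3 lower. limma-voom called 0, against 0.00667% of all genes. Without KM replicate 1 the same 5 genes passed in edgeR (13.2%, against 11.5% of all genes), and without KM replicate 2 none of the 38 did, against 1.14% of all genes. Each of these leaves KM with 1 library, which is then assumed to vary as the 2 KMS libraries do. An unadjusted p under 0.05 was reached by 6 of 38 higher in KMS (15.8%, against 12.2% of all genes) and by 9 of 38 lower (23.7%, against 14.1%).

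Because each genotype held a female and a male library, the fit was repeated with a term for sex, which coincides with the replicate number. Then Eda2r and Bbc3 fell (2 of 38, 5.26%, against 3.5% of all genes) and Bid rose (1 of 38, 2.63%, against 1.93% of all genes), shares close to the background. The groups did not overlap, with both KMS libraries below both KM libraries, for 17 of 38 (44.7%, against 31.3%), and with both above for 9 of 38 (23.7%, against 29%). The median log2 fold change was -0.24 over the 38 genes and -0.0103 over all tested genes. The ratios within the female and within the male pair were both below 0 for 23 genes (60.5%, against 36.8% of all genes), both above 0 for 11 (28.9%, against 35.2%) and of opposite sign for 4 (10.5%, against 28.0%). For 2 libraries against 2, an exact permutation test of a single gene cannot give a two-sided p below 0.333, so calls rest on the spread shared across genes. By the authors' deposited table, made with a test not given in the sources used here, 2 of the 38 had an adjusted p under 0.05, Eda2r at 0.012 and Bid at 0.041, against 2.22% of its 18383 genes.

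**Figure D1:**
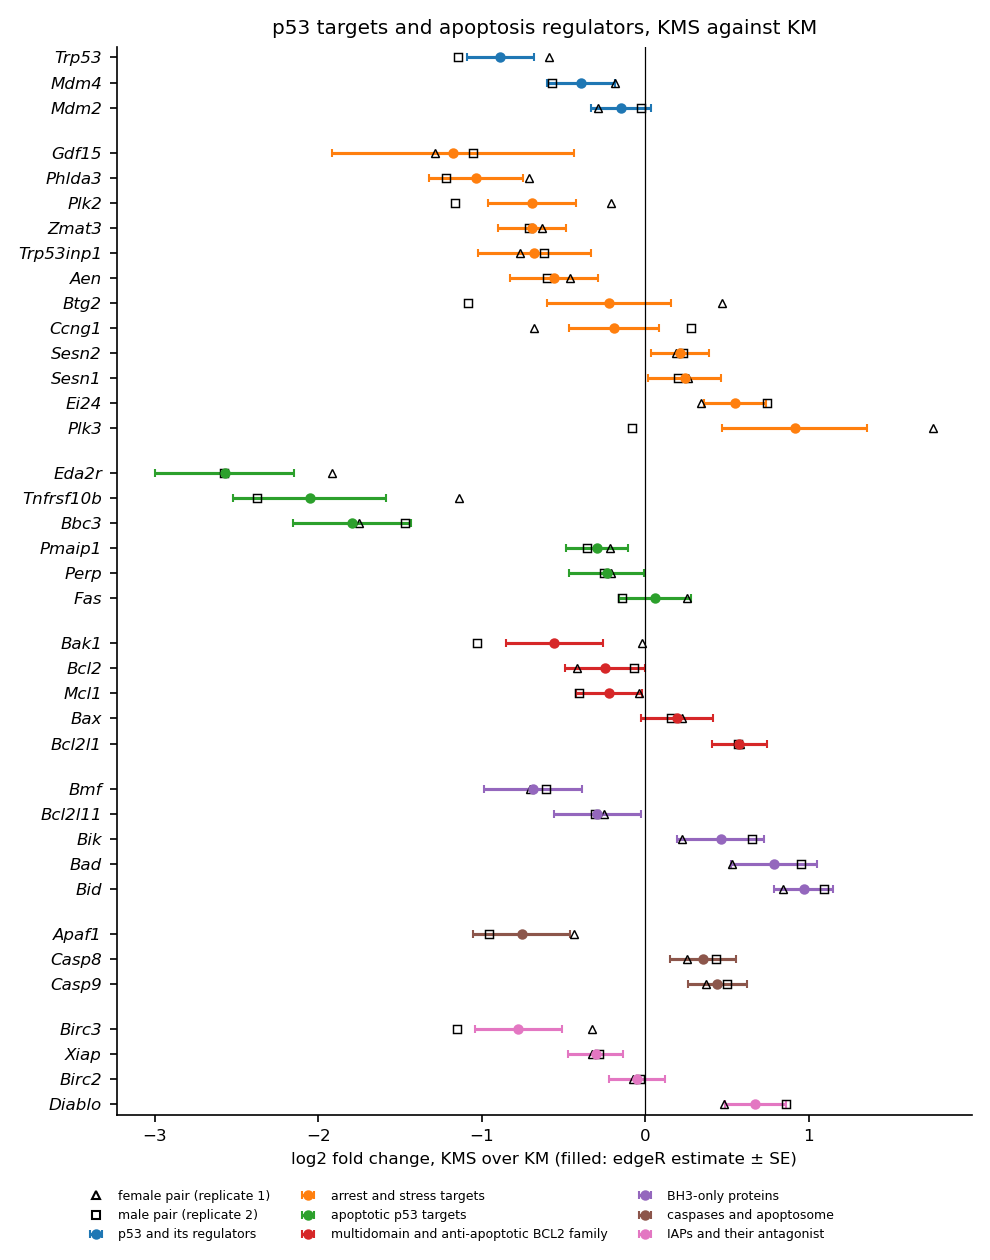
Log2 fold change of each of the 38 genes, KMS over KM, by role. Filled points and bars are the edgeR estimate with genotype only ± SE (n = 2 libraries per group), open triangles and squares the log2 ratio within the female and the male pair; the lowest estimates are those of Eda2r (-2.57), Tnfrsf10b (-2.05) and Bbc3 (-1.79), and the highest that of Bid (0.97).

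Trp53 (chromosome 11, 69580359 to 69591873, GRCm38) was lower in both KMS libraries. It had 28.7 and 24.9 CPM in KMS, against 43.4 and 55.7 CPM in KM, from 277, 205, 804 and 909 counts. The groups did not overlap, and the log2 fold change was -0.89 ± 0.20 (SE), which missed the threshold with genotype only (edgeR adjusted p = 0.0922) and when sex was added (edgeR adjusted p = 0.0645). The log2 ratio was -0.59 between female and -1.14 between male libraries. With any 1 library left out the log2 fold change ran from -1.04 to -0.69. It was smallest in size without KM replicate 2, the library rich in injury markers. A processed pseudogene, Trp53-ps, is counted separately, with 4 and 3 counts in KMS and 10 and 13 in KM, and the handling of reads that match both is unstated. Mdm2, the ubiquitin ligase for p53 and itself a p53 target, had 46.6 and 59.0 CPM in KMS, against 57.2 and 60.1 CPM in KM, and the groups overlapped. Its log2 fold change of -0.15 had a 95% interval of -0.60 to 0.30. Mdm4 had 80.3 and 82.2 CPM in KMS, against 91.2 and 122 CPM in KM, without overlap, and a log2 fold change of -0.39 ± 0.21 (SE, edgeR adjusted p = 0.277). All 3 genes were thus lower by value and 0 of 3 passed in either fit.

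The p53 targets grouped here as apoptotic held the 3 largest differences among the 38 genes. Eda2r (chromosome X, 97333840 to 97377216), which encodes the ectodysplasin A2 receptor of the TNF receptor family, had 1.65 and 0.85 CPM in KMS, against 7.61 and 7.53 CPM in KM. The KMS libraries held 16 and 7 counts and the KM libraries 141 and 123, so the lower level rests on few reads in KMS. The KM libraries were nearly equal and both lay far above both KMS libraries. It gave a log2 fold change of -2.57 ± 0.42 (SE, edgeR adjusted p = 0.0719). With the term for sex Eda2r fell by 2.61 on the log2 scale (SE 0.47, edgeR adjusted p = 0.025). The log2 ratio was -1.91 between female and -2.57 between male libraries, after adding 0.5 CPM, which shrinks ratios of low levels. Without KM replicate 2 the log2 fold change of -2.57 was as large as with it. With any 1 library left out it ran from -3.10 to -2.17.

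Bbc3 (chromosome 7, 16308393 to 16318205), which encodes PUMA, the BH3-only protein through which p53 kills many cell types, had 1.86 and 2.79 CPM in KMS, against 7.45 and 8.63 CPM in KM. The counts were 18 and 23 in KMS and 138 and 141 in KM, and both KMS libraries lay below both KM libraries. With the term for sex it fell by 1.81 on the log2 scale (SE 0.40, edgeR adjusted p = 0.0444), while with genotype only the log2 fold change of -1.79 ± 0.36 (SE) missed the threshold (edgeR adjusted p = 0.0823). The log2 ratio was -1.75 between female and -1.47 between male libraries, and with any 1 library left out the log2 fold change ran from -2.09 to -1.48. With sex in the model, Bbc3 passed neither in DESeq2 nor with library totals. Tnfrsf10b (chromosome 14, 69767472 to 69784411), the mouse receptor for the death ligand TRAIL, had 2.28 and 1.82 CPM in KMS, against 5.61 and 11.5 CPM in KM. Its log2 fold change of -2.05 ± 0.47 (SE) passed neither with genotype only (edgeR adjusted p = 0.0918) nor when sex was added (edgeR adjusted p = 0.0529). The higher KM value came from replicate 2, the library rich in injury markers, and without that library the log2 fold change was -1.44 (edgeR adjusted p = 0.23), against -2.47 without KM replicate 1 (edgeR adjusted p = 0.00999).

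The other 3 targets of this class differed less between genotypes, and 0 of them passed in either fit. Pmaip1, which encodes NOXA, the BH3-only protein that neutralises MCL1, had 20.1 and 19.7 CPM in KMS, against 23.4 and 25.3 CPM in KM. These groups did not overlap, yet the log2 fold change was -0.29 with a 95% interval of -0.75 to 0.17 (edgeR adjusted p = 0.361). Perp, a membrane protein of cell junctions, had a log2 fold change of -0.24 ± 0.23 (SE) and Fas, the death receptor for FAS ligand, of 0.06 ± 0.22 (SE), which turned to -0.0691 with library totals, both with overlapping groups. Within this class of 6 genes, then, 5 were lower by value (50.7% of all genes were) and 4 were lower without overlap (31.3% of all genes were), and the differences ran from -2.57 to 0.06 on the log2 scale. The 3 genes with the largest differences were also those with the lowest levels in KMS, at 0.21 ± 0.10 (Eda2r), 0.38 ± 0.06 (Tnfrsf10b) and 1.10 ± 0.31 (Bbc3) CPM per kilobase of exon (SD, n = 2). Perp stood at 26.4 ± 5.10, Fas at 8.09 ± 0.69 and Pmaip1 at 7.27 ± 0.10 CPM per kilobase in KMS. The class is a grouping made here with earlier results known, and the counts over its 6 genes depend on it. Other genes of apoptosis were placed elsewhere, such as Bax, Bid and Apaf1, with log2 fold changes of 0.19, 0.97 and -0.75. That placing does not say that p53 leaves them unregulated.

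**Figure D2:**
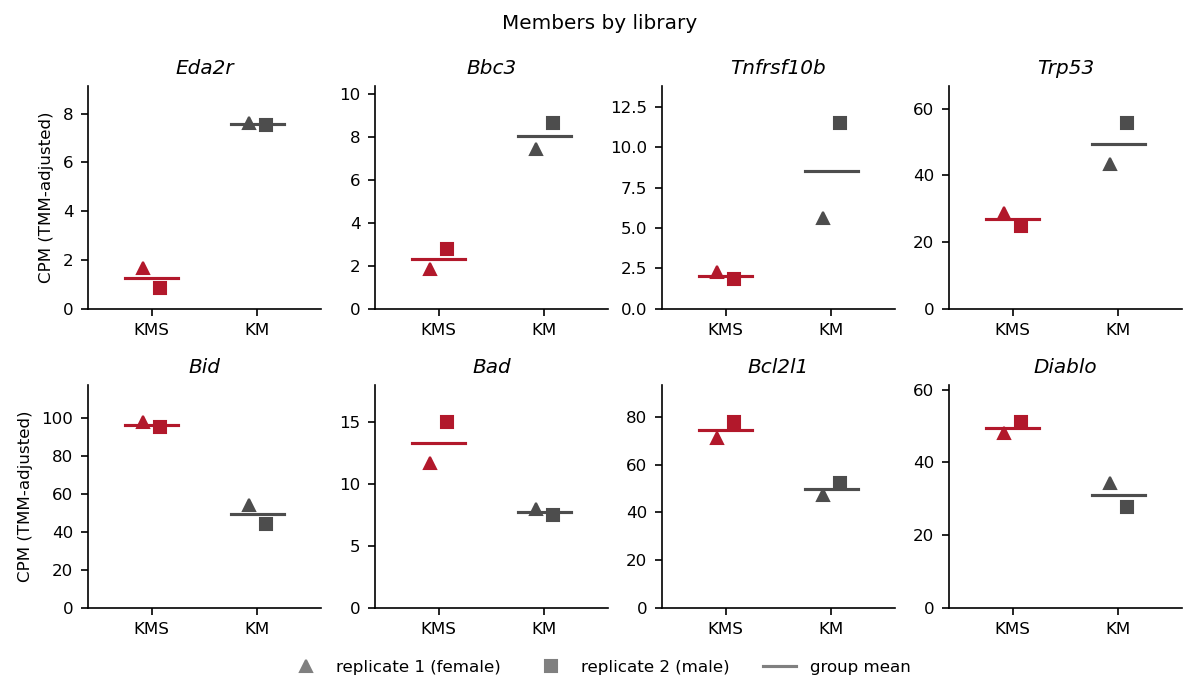
CPM of 8 of the genes in each library, KMS left and KM right (triangles replicate 1, female; squares replicate 2, male; bars the group mean, n = 2; each panel has its own axis from 0). Both KMS libraries lie below both KM libraries for Eda2r, Bbc3, Tnfrsf10b and Trp53, and above both for Bid, Bad, Bcl2l1 and Diablo.

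Targets of p53 that act in arrest, repair and stress were mixed. Of 12, 8 were lower and 4 higher by value, their median on the log2 scale was -0.39, and 0 passed in either fit. Phlda3, which blocks AKT by competing for membrane lipids, had 6.00 and 5.47 CPM in KMS, against 10.1 and 13.4 CPM in KM (log2 fold change -1.04 ± 0.29 SE, edgeR adjusted p = 0.106). Zmat3, an RNA-binding zinc-finger protein, had 14.5 and 15.9 CPM in KMS, against 22.7 and 26.4 CPM in KM (log2 fold change -0.69 ± 0.21 SE, edgeR adjusted p = 0.113). For both genes the KMS libraries were close to each other and below both KM libraries. The kinase gene Plk2 had 23.1 and 16.2 CPM in KMS, against 26.8 and 36.8 CPM in KM, with log2 ratios of -0.21 between female and -1.16 between male libraries (edgeR adjusted p = 0.172). With any 1 library left out its log2 fold change ran from -0.94 to -0.44.

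Ei24, a membrane protein of the endoplasmic reticulum needed for autophagy, was higher by value, with 115 and 138 CPM in KMS, against 90.6 and 82.5 CPM in KM (log2 fold change 0.55 ± 0.19 SE, edgeR adjusted p = 0.144). The sestrin genes Sesn1 and Sesn2, which restrain mTORC1, had log2 fold changes of 0.24 and 0.21. Ccng1, a cyclin that is among the most regular p53 targets in mouse tissues, had 164 and 240 CPM in KMS, against 263 and 198 CPM in KM, and its groups overlapped. Gdf15, a secreted stress cytokine, had 2.59 and 9.96 CPM in KMS, against 7.02 and 21.2 CPM in KM. Each genotype had its higher Gdf15 value in the male library, the groups overlapped, and the log2 ratio was -1.28 between female and -1.05 between male libraries (edgeR adjusted p = 0.352 with genotype only, 0.0649 with sex added). Its log2 fold change of -1.18 became -0.46 without KMS replicate 1, -2.42 without KMS replicate 2, -1.76 without KM replicate 1 and -0.17 without KM replicate 2. Trp53inp1, which feeds back on p53, was also higher in the male library of each genotype, with 41.7 and 73.7 CPM in KMS, against 71.1 and 114 CPM in KM, and edgeR adjusted p-values of 0.263 and 0.0832.

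The BH3-only genes that were grouped here apart from the p53 targets parted into 3 higher and 2 lower by value. This grouping does not say that p53 leaves them unregulated. Bid (chromosome 6, 120891930 to 120916853), whose protein is cleaved by caspase 8 and then activates BAX and BAK, had 97.9 and 95.4 CPM in KMS, against 54.3 and 44.4 CPM in KM. The KMS libraries were nearly equal and both well above both KM libraries, from 946 and 785 counts in KMS and 1006 and 725 in KM. With the term for sex Bid rose by 0.98 on the log2 scale (SE 0.21, edgeR adjusted p = 0.0393), and with genotype only the log2 fold change of 0.97 ± 0.18 (SE) missed the threshold (edgeR adjusted p = 0.0823). The log2 ratio was 0.84 between female and 1.09 between male libraries, and with any 1 library left out the log2 fold change ran from 0.84 to 1.13. With sex in the model and library totals in place of TMM, Bid did not pass. Exons of Bcl2l13 on the opposite strand cover 17.7% of the exon length of Bid in GENCODE M21, and the strand setting of the counting is unstated. Bcl2l13 itself had 57.2 ± 1.25 CPM in KMS and 46.5 ± 3.33 CPM in KM (SD, n = 2), a smaller difference (log2 fold change 0.30, edgeR adjusted p = 0.288).

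Bad, which binds BCL-XL when it is not phosphorylated, had 11.7 and 14.9 CPM in KMS, against 7.94 and 7.47 CPM in KM (log2 fold change 0.79 ± 0.26 SE, edgeR adjusted p = 0.136). Its exons share 20.5% of their length with Gpr137 on the opposite strand, which differed alike at 34.4 ± 1.37 CPM in KMS and 21.3 ± 0.10 CPM in KM (SD, n = 2), and reads in that shared stretch can be told apart only if counting used strand. Bik, a BH3-only protein of the endoplasmic reticulum, had 9.72 and 11.5 CPM in KMS, against 8.26 and 7.16 CPM in KM, and its log2 fold change of 0.46 had a 95% interval of -0.19 to 1.11. Bmf, which responds to loss of anchorage, had 6.21 and 8.50 CPM in KMS, against 10.4 and 13.2 CPM in KM (log2 fold change -0.69 ± 0.30 SE, edgeR adjusted p = 0.208). Bcl2l11, the gene of BIM, had overlapping groups and a log2 fold change of -0.29 ± 0.27 (SE).

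Among the proteins that BH3-only factors act on, Bcl2l1, the gene of the survival protein BCL-XL, showed the clearest difference. It had 71.1 and 77.7 CPM in KMS, against 47.4 and 52.4 CPM in KM, a log2 fold change of 0.58 ± 0.17 (SE) that did not pass (edgeR adjusted p = 0.109 with genotype only, 0.115 with sex added). The log2 ratio was nearly the same in both pairs, at 0.58 between female and 0.56 between male libraries. Mcl1, the short-lived survival protein, had 175 and 156 CPM in KMS, against 180 and 207 CPM in KM, with a 95% interval of -0.71 to 0.27 for the log2 fold change. Bcl2 had 9.83 and 11.9 CPM in KMS, against 13.3 and 12.5 CPM in KM (edgeR adjusted p = 0.55). The effector gene Bak1 had 15.1 and 11.3 CPM in KMS, against 15.3 and 23.6 CPM in KM. Its log2 ratio was -0.02 between female and -1.03 between male libraries, so its lower mean rested largely on KM replicate 2, without which the log2 fold change was -0.21, against -0.82 without KM replicate 1. Exons of Ggnbp1 on the opposite strand cover up to 25.5% of the exon length of Bak1. This is a sum over the annotated entries of Ggnbp1, in which shared bases may count more than once. Bax, the other effector, had overlapping groups and a log2 fold change of 0.19 ± 0.22 (SE).

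Levels per kilobase of exon allow the genes to be set beside each other. Mcl1 had the highest mean level of the 12 BCL2 family genes in both genotypes, at 48.4 ± 3.82 in KMS and 56.5 ± 5.63 CPM per kilobase in KM (SD, n = 2). Bid came next in KMS at 27.2 ± 0.50, above Bax at 19.2 ± 2.68 without overlap. In KM, Bax stood at 16.8 ± 2.91 and Bid at 13.9 ± 1.98 CPM per kilobase, and these neighbours overlapped. Bbc3 was number 8 in KM at 3.79 ± 0.39 and the lowest of the 12 in KMS at 1.10 ± 0.31 CPM per kilobase, where it overlapped Bcl2 at 1.19 ± 0.16. The level of Bid relative to Mcl1 was 0.539 and 0.587 in KMS, against 0.291 and 0.207 in KM, and that of Bbc3 relative to Mcl1 was 0.0171 and 0.0288 in KMS, against 0.0668 and 0.0672 in KM. Exon lengths were the union over all GENCODE M21 transcripts; the transcripts used in these cells may be shorter.

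**Figure D3:**
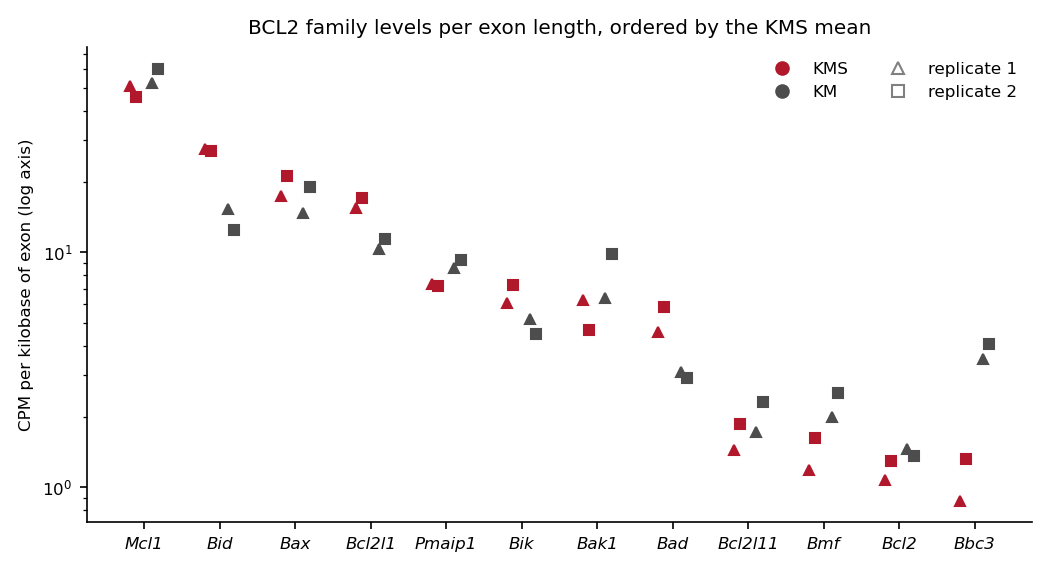
CPM per kilobase of exon (log axis) of the 12 BCL2 family genes in each library, KMS red and left, KM grey and right, ordered by the KMS mean (triangles replicate 1, squares replicate 2). Mcl1 is highest in all 4 libraries, Bid and Bcl2l1 lie higher in KMS, and Bbc3 stands at the end of the KMS order.

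Of the caspase and apoptosome genes, the initiators were higher and the scaffold lower by value, with 0 of 3 passing in either fit. Casp9 had 31.2 and 31.8 CPM in KMS, against 24.0 and 22.4 CPM in KM (log2 fold change 0.44 ± 0.18 SE, edgeR adjusted p = 0.188). Casp8, the initiator of the death receptor route, had 32.9 and 41.9 CPM in KMS, against 27.5 and 30.9 CPM in KM (edgeR adjusted p = 0.311). Apaf1, the scaffold on which caspase 9 is activated, had 7.86 and 8.14 CPM in KMS, against 10.8 and 16.2 CPM in KM (log2 fold change -0.75 ± 0.30 SE, edgeR adjusted p = 0.176). With any 1 library left out its log2 fold change ran from -1.01 to -0.43. None of the 3 genes had overlapping groups, as held for 60.3% of all genes.

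The caspase inhibitors and their antagonist also differed in direction. Diablo, whose mitochondrial protein SMAC binds and displaces IAPs, had 48.0 and 51.0 CPM in KMS, against 34.3 and 27.9 CPM in KM, a log2 fold change of 0.67 ± 0.19 (SE) that did not pass (edgeR adjusted p = 0.106 with genotype only, 0.097 with sex added). Exons of other genes cover 19.3% of its exon length on the same strand and up to 23.5% on the opposite strand in the annotation. The latter is a sum over AC157931.1 and B3gnt4, in which shared bases may count more than once. Part of the reads of Diablo may thus be shared. Xiap, a direct inhibitor of caspases, had 78.6 and 81.6 CPM in KMS, against 98.6 and 99.3 CPM in KM, a narrow difference without overlap (log2 fold change -0.30 ± 0.17 SE, edgeR adjusted p = 0.292). Birc3, an NF-kappaB target, had 15.5 and 12.6 CPM in KMS, against 19.5 and 28.7 CPM in KM (log2 fold change -0.78 ± 0.27 SE, edgeR adjusted p = 0.143). Its log2 ratio was -0.32 between female and -1.15 between male libraries, and its log2 fold change ran from -1.01 to -0.47 with any 1 library left out, smallest in size without KM replicate 2. This went with the leukocyte markers, which were also highest in KM replicate 2, and their part in it was not tested. Birc2, its close relative, had values close to each other, at 38.3 and 42.9 CPM in KMS, against 40.3 and 43.8 CPM in KM, with a 95% interval of -0.47 to 0.37 for the log2 fold change.

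**Figure D4:**
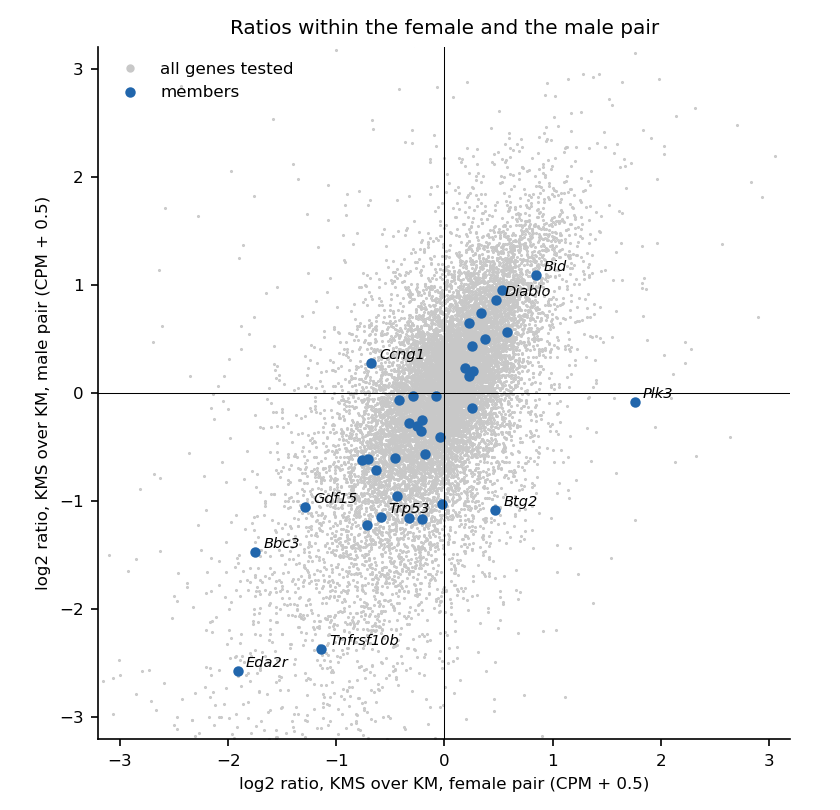
Log2 ratio of CPM + 0.5, KMS over KM, in the female pair (horizontal) and the male pair (vertical) for the 38 genes (blue) and all 15002 tested genes (grey; points beyond the axes are not drawn). Eda2r, Bbc3 and Tnfrsf10b lie low and Bid high in both pairs, while Plk3, Btg2 and Ccng1 lie on opposite sides of 0.

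Further genes of both pathways were taken from textbook lists of 60 symbols, of which 52 had a row and 51 passed the filter. None of the 51 passed with genotype only in edgeR, where 10 had an unadjusted p under 0.05 (3 higher and 7 lower, together 19.6%, against 26.3% of all genes). DESeq2 called 4 (7.84%, against 11.8% of all genes). In edgeR with the term for sex, 1 passed as higher (1.96%, against 1.93% of all genes) and 0 as lower (against 3.5% of all genes). The count is thus no larger than the background. The gene that passed was Endog, of the mitochondrial nuclease endonuclease G. Endog rose by 1.15 on the log2 scale (SE 0.25, edgeR adjusted p = 0.0403), with 29.8 and 42.0 CPM in KMS, against 16.7 and 15.2 CPM in KM. Of the 24 tested genes of the p53 pathway, 16 were lower by value and the median on the log2 scale was -0.38. Cdkn1a, the gene of the CDK inhibitor p21 and the best known arrest target of p53, had 18.2 and 8.99 CPM in KMS, against 26.0 and 35.3 CPM in KM (log2 fold change -1.17 ± 0.36 SE, edgeR adjusted p = 0.123). Gadd45a, which acts in growth arrest after DNA damage, had 30.3 and 39.2 CPM in KMS, against 49.2 and 71.7 CPM in KM (edgeR adjusted p = 0.122), and Sfn, the gene of 14-3-3 sigma, had 4.03 and 3.04 CPM in KMS, against 6.64 and 21.1 CPM in KM (edgeR adjusted p = 0.114). The 27 tested genes of apoptosis had a median of 0.04, with 14 higher and 13 lower by value. Aifm1, the apoptosis-inducing factor of the mitochondrial intermembrane space, had 144 and 158 CPM in KMS, against 106 and 78.7 CPM in KM (edgeR adjusted p = 0.118), and Birc5, the gene of survivin, a protein of dividing cells, had 1.03 and 1.82 CPM in KMS, against 2.65 and 6.67 CPM in KM (edgeR adjusted p = 0.148). Birc5 went with the markers of cell division, all 7 lower by value in KMS.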

How the data were processed

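Messenger RNA of 4 libraries (2 KMS, 2 KM) was sequenced from poly(A)-selected RNA with a directional kit as read pairs of 150 bases, per the labels' protocols. The build was GRCm38 (mm10) and the tools MACS2 2.1.1, StringTie, HISAT2, FastQC, Trimmomatic 0.35 and cutadapt 1.9.1, per the submitters' processing notes; the counting program and strand setting were not stated. The authors deposited raw read counts per gene for each library, with their own log2 fold change, p-value and adjusted p-value from a test not given in the sources used here. A second table was not used here.

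Counts were grouped by the genotype in the titles and tested with edgeR 4.0.16 in R 4.3.3 (filterByExpr with a minimum count of 10 and total of 15, TMM, quasi-likelihood F test, two-sided, genotype as the only term, Benjamini-Hochberg adjusted p under 0.05 over all 15002 genes kept). A log2 fold change above 0 means a higher level in KMS. The SE was taken from the F statistic, and 95% intervals from the t distribution with the degrees of freedom of the fit. Ratios within a pair were taken after adding 0.5 CPM, which shrinks them most at low levels, as for Eda2r, Bbc3 and Tnfrsf10b. The labels do not say that libraries came from separate animals. By Xist and Y-linked counts the 2 libraries of a genotype differed in sex, so they did not come from 1 animal. How many animals went into each library is not stated, and p-values cover only the spread among the 4 libraries. The design text speaks of triplicates, and 2 libraries per genotype were analysed. Alternatives were DESeq2 1.42.0, limma-voom (limma 3.58.1), other scalings and filters, each library left out, a replicate block, and others given in the closing section. Positions, exon lengths and exon overlaps come from GENCODE M21, of the same build, and start regions from RefSeq on GRCm38.p6. The members, their roles and the pathway and marker lists were chosen with earlier results of these data known. The text names Trp53, every member called with genotype only or with the term for sex, and the 4 members of smallest p in each role. Sesn1, Sesn2, Ccng1, Gdf15, Trp53inp1, Btg2, Plk3, Perp, Fas, Bcl2l11 and Bax were named outside that rule after their values were seen.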

Additional observations from a re-analysis of the deposited data

Results flagged for a closer look

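Of the 38 genes, 4 had ratios of KMS over KM that pointed in opposite directions in the female and the male pair. With 1 library per genotype and sex, the difference between the pairs was not tested. Ccng1 had a log2 ratio of -0.682 between female and 0.279 between male libraries. Btg2, an antiproliferative p53 target, had 0.468 in the female and -1.08 in the male pair. Plk3, a stress-responsive kinase gene, had 1.76 in the female and -0.0815 in the male pair, with 24.4 and 11.7 CPM in KMS, against 6.86 and 12.4 CPM in KM. Fas had 0.255 in the female and -0.141 in the male pair.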

How the results depend on the processing

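The number of the 38 genes that passed was 0 with genotype only. It stayed at 0 with DESeq2 size factors, upper-quartile factors, library totals, limma-voom, both other filters and without mitochondrial, haemoglobin, Xist and Y-linked genes. It was 1 with robust estimation (Eda2r), 5 with the DESeq2 Wald test, 5 at an adjusted p under 0.10 and 0 to 5 with 1 library left out, the 5 coming without KM replicate 1 (Trp53, Eda2r, Tnfrsf10b, Bbc3 and Bid). No blocked fit can be had with a library left out. With the replicate block, the same model as the term for sex, it was 3. The titles do not say that equal numbers mark a shared litter or day, and the deviations of same-numbered libraries correlated at 0.0657 across genes. With the block, 3 passed under DESeq2 (Bid, Eda2r and Tnfrsf10b, not Bbc3), 3 with DESeq2 size factors and 4 with upper-quartile factors. There were 4 with limma-voom, 1 with library totals (Eda2r) and 8 at an adjusted p under 0.10. These settings were chosen after seeing the data. The share of all genes that passed in each is not given here, so these counts cannot be set against a background. Of the other pathway genes, 4 passed under DESeq2, 1 with the block, 1 at 0.10 and 0 to 5 with 1 library left out. Over all genes the count of 5 became 3 with library totals, 1767 under DESeq2, 1 with limma-voom, 233 with robust estimation, 3 with the stricter filter, 815 with the block, 1216 at 0.10 and 0 to 1786 with 1 library left out, the 1786 without KM replicate 1 and 169 without KM replicate 2.

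Of 570 log2 fold changes for the 38 genes over 15 alternatives, 559 kept their direction. The alternative at an adjusted p under 0.10 is the main fit itself, and robust estimation gave the same fold changes. Neither of these could reverse a direction, so the 559 overstate how far directions were put to a check. Fas turned to -0.00597 with upper-quartile factors and -0.0691 with library totals. With 1 library left out, the log2 fold change ranged over -0.311 to 0.0478 for Mdm2, -0.475 to 0.0947 for Ccng1, -0.852 to 0.247 for Btg2, -0.0422 to 0.184 for Fas, -0.429 to 0.00769 for Perp and -0.117 to 0.0658 for Birc2. Library totals shifted the median over all genes to -0.13, against -0.01 with TMM. For these reversals the cause was not tested. Counts of 7 to 23 in KMS limit the precision of Eda2r, Tnfrsf10b and Bbc3.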
